A study of Mus musculus with 6 samples.

Results

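The glial connexins described here are 4 genes, Gjc3, Gjb1, Gja1 and Gjb6, out of the 54532 gene rows measured by RNA-seq in mouse brain at postnatal day 15 (P15). They were chosen by name, as gap junction family genes of oligodendrocytes (Gjc3, encoding Cx29, and Gjb1, encoding Cx32) and of astrocytes (Gja1, encoding Cx43, and Gjb6, encoding Cx30), a rule that uses no measured value. Earlier results of these data were, however, known when these genes and the gene lists below were chosen. The study asked how loss of Angptl2, which encodes a secreted protein, bears on myelination, and it compared 3 Angptl2+/+ with 3 Angptl2-/- brain libraries on the C57BL/6 background. The Angptl2-/- mice carry a germline deletion of exon 2, made by mating Angptl2 fl/fl;Stra8-cre males, in which Cre is active in the male germ line, with wild-type females. How the deletion was brought to both alleles, whether the sequenced mice were littermates, how their brains were dissected and whether each library came from a different mouse were not stated in the sources read here, so the p-values below measure the spread between these libraries. The labels describe the material as all cell types of the brain, and in such RNA fewer cells of a type and less RNA per cell cannot be told apart.

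Connexins assemble as hexamers in the plasma membrane, and hexamers of neighbouring cells dock to form gap junction channels that pass ions and small metabolites. Astrocytes are joined into a network by Cx43 and Cx30, and oligodendrocytes are joined to that network in part by Cx32, while Cx29 lies in the innermost myelin layer facing the axon and is not known to form ordinary gap junctions. This glial network is thought to carry away the potassium that active axons release, and human mutations of GJB1 cause a disorder of peripheral myelin.

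All connexins share cysteines in their extracellular loops, where the docking of the channels takes place. The coding stretch of the first loop is shown because it is the sequence signature by which these genes are recognised as one family, and because it shows how far the members differ at the level of reads. A search for 3 cysteine codons, with 6 codons between the first pair and 3 between the second, matched 1 place in each coding sequence. The stretches below run 5′ to 3′ on the coding strand, with the cysteine codons in capitals and positions on GRCm38.
Gjc3 (Cx29), chr5:137957797-137957832, minus strand: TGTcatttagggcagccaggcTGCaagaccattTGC
Gjb1 (Cx32), chrX:101384324-101384359, plus strand: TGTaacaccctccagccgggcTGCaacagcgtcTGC
Gja1 (Cx43), chr10:56387706-56387741, plus strand: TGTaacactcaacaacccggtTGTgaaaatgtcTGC
Gjb6 (Cx30), chr14:57124611-57124646, minus strand: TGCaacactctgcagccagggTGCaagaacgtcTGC
Between any pair of the 4 members, 18 to 29 of these 36 bases were identical. Over the whole coding sequences the longest run of bases shared by a pair of members was 9 to 18, and the exons of none of the 4 overlapped another gene, on reads of 150 bases.

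The libraries held 17127277 to 18928921 fragments assigned to genes, as recovered from the FPKM values (fragments per kilobase of exon, scaled to the depth of the library). Angptl2 itself stood at 0.660, 0.958 and 0.290 FPKM in Angptl2+/+ replicates 1 to 3 and at 0.166, 0.320 and 0.126 in Angptl2-/- replicates 1 to 3, so the groups overlapped. It lay below the mean of 0.5 FPKM required for testing, and its value sums all exons, not the deleted one alone. Angptl2+/+ replicate 1 stood apart: its summed level of 6 cerebellar markers was 94.1 FPKM against 12.9 to 27.1 in the other 5 libraries, with Gabra6 at 10.5 against 0 to 0.167 FPKM, and its summed level of 12 oligodendrocyte markers was 2074 against 642 to 1231 FPKM. The 5 choroid plexus markers summed to 1.26 to 6.54 FPKM in Angptl2+/+ and 103 to 933 FPKM in Angptl2-/-. Xist was at 27.4, 27.9 and 42.2 FPKM in Angptl2+/+ replicates 1 and 2 and Angptl2-/- replicate 2 and at most 0.0697 in the other 3, whereas the Y-linked Ddx3y was at 9.26 to 14.7 FPKM in those 3 and at 0 elsewhere, so the genotypes were not matched for sex. Tissue make-up and sex therefore differed along with genotype, and their part in the results was not tested except where a value without a library or with Xist in the fit is given.

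For none of the 4 glial connexins was a difference between the genotypes established. By limma on log2(FPKM + 0.1), 0 of the 4 passed a Benjamini-Hochberg adjusted p of 0.05, as did 0 of all 14862 genes tested (0%). At an unadjusted p of 0.05 the whole table held 1355 genes lower and 1054 higher in Angptl2-/- (9.12% and 7.09%), and voom on the recovered fragments also gave 0 adjusted calls, with 1226 lower and 1155 higher at the unadjusted threshold. Which direction held more genes depended on the scaling, as quantile normalization gave 1150 lower and 1325 higher. None of the 4 was among those genes, and in none of the 4 did every Angptl2-/- library lie below or above every Angptl2+/+ library, an arrangement found for 11.8% (below) and 10.7% (above) of all genes. The fold change was negative for 3 of the 4, with a median of −0.22 on the log2 scale, where 50.6% of all genes tested were negative with a median of −0.004.

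**Figure D1:**
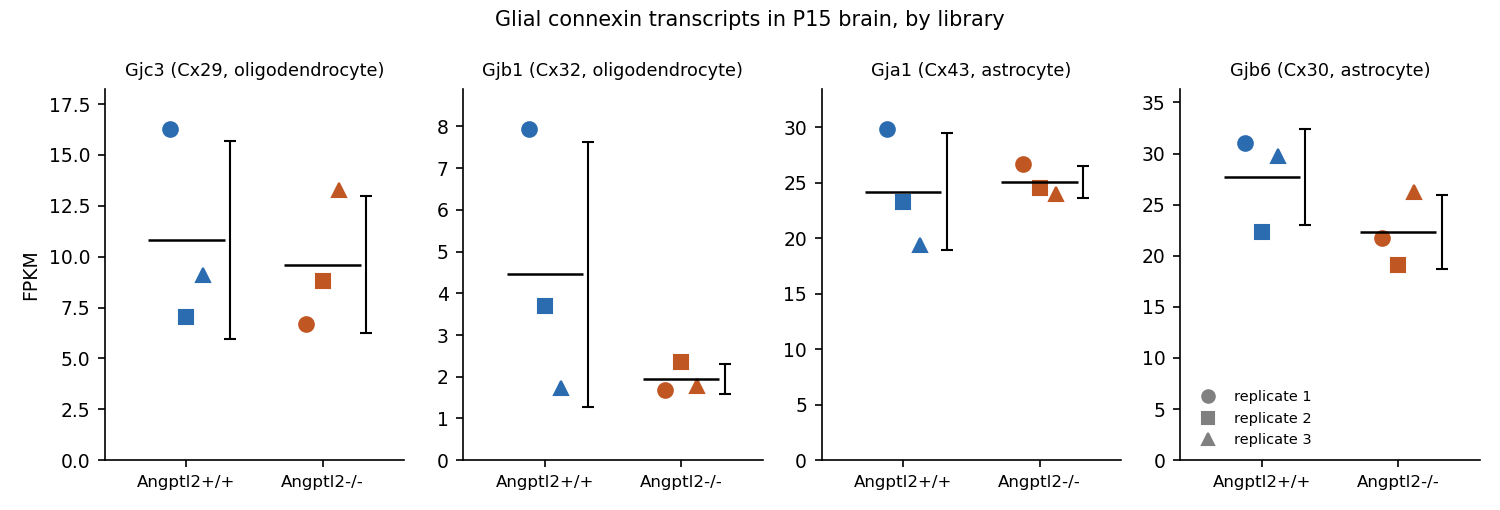
FPKM of Gjc3, Gjb1, Gja1 and Gjb6 in each library (circle, square and triangle for replicates 1, 2 and 3), with the mean of 3 libraries as a line and its SD as the bar beside it, on axes that start at 0. The genotypes overlap for each gene, and Angptl2+/+ replicate 1 is the highest library for Gjc3, Gjb1, Gja1 and Gjb6.

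Gjc3 (chromosome 5, 137953461 to 137963098, minus strand, GRCm38) encodes Cx29 and was the more abundant of the oligodendrocyte pair. It measured 16.3, 7.02 and 9.11 FPKM in Angptl2+/+ replicates 1 to 3, and 6.70, 8.79 and 13.3 FPKM in Angptl2-/- replicates 1 to 3. The highest library was wild type and the lowest was null, but the next highest was null, and the ranges covered each other almost completely. The means were 10.8 ± 4.86 and 9.60 ± 3.37 FPKM (SD, n = 3 each). The log2 fold change was −0.14 with an SE of 0.35 and a 95% interval of −0.96 to 0.68 (limma, adjusted p = 0.868, exact permutation p = 0.7, two-sided). The direction turned without Angptl2+/+ replicate 1 (0.20) and without Angptl2-/- replicate 1 (0.09). The residual SD of Gjc3 over the libraries was higher than that of 89.9% of the genes tested. RefSeq lists 1 start for Gjc3, and its window from 250 bases before to 50 after that start is shown. Its part in these levels was not tested.
Gjc3, chr5:137963049-137963348, minus strand: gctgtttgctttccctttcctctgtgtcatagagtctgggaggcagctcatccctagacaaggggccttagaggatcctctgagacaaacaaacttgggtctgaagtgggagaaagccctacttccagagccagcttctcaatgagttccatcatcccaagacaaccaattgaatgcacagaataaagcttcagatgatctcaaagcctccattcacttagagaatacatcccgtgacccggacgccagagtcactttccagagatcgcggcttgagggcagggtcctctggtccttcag

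Gjb1 (chromosome X, 101376378 to 101385629, plus strand) encodes Cx32, a channel of non-compacted myelin, and was the least abundant member. It measured 7.94, 3.69 and 1.73 FPKM in Angptl2+/+ replicates 1 to 3, and 1.68, 2.36 and 1.79 FPKM in Angptl2-/- replicates 1 to 3, from 50 to 242 fragments a library. Wild-type replicates 1 and 2 lay above all null libraries, whereas wild-type replicate 3 lay among them. The means were 4.45 ± 3.18 and 1.94 ± 0.365 FPKM (SD, n = 3 each), the largest difference of the 4 members, with a log2 fold change of −0.92, an SE of 0.48 and a 95% interval of −2.05 to 0.22 (limma, adjusted p = 0.377, exact permutation p = 0.3, two-sided, where the smallest possible is 0.1). The unadjusted p was 0.0986, and the fold change was lower than that of all but 1.82% of genes, but the residual SD was higher than that of 94.8% of them. The value depended on single libraries, as it was −0.38 without Angptl2+/+ replicate 1 (adjusted p = 0.650 by limma) and −1.45 without Angptl2+/+ replicate 3 (unadjusted p = 0.00384, adjusted p = 0.207 by limma).

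Gjb1 is X-linked, and its highest values fell in the 3 libraries with Xist, at 7.94, 3.69 and 2.36 FPKM, against 1.68, 1.73 and 1.79 FPKM in the 3 libraries with Ddx3y. This arrangement was noticed after the values were seen and carries no test. With the log2 level of Xist in the limma fit, the difference between the genotypes was −0.65 with an SE of 0.37 (adjusted p = 0.517), and those of Gjc3, Gja1 and Gjb6 were −0.13, 0.13 and −0.38 (adjusted p = 0.908, 0.761 and 0.454). RefSeq lists 4 starts for Gjb1, and since the gene-level FPKM sums the transcripts from all of them, the first and the last are shown. The capitals mark a match to AACAAT, the core bound by SOX factors, read on the opposite strand at the first start, and a TATAAA box at the last start.
Gjb1 first start, chrX:101376126-101376425, plus strand: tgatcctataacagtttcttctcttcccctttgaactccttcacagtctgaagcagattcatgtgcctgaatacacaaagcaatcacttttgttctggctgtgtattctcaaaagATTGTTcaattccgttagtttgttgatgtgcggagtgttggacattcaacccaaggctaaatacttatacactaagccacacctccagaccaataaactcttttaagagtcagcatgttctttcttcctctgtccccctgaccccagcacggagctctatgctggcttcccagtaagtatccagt
Gjb1 last start, chrX:101383482-101383781, plus strand: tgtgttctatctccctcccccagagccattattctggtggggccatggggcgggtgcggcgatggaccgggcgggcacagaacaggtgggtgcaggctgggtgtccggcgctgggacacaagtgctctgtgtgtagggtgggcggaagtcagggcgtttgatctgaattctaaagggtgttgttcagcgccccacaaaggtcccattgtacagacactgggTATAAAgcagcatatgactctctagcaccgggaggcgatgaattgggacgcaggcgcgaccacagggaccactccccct
These letters were searched on both strands of the 300-base windows, together with TTGGCA, part of the palindrome bound by NFI factors. The windows of Gjc3, Gja1 and Gjb6 and the other starts of Gjb1 held none of the 3 motifs, and the motifs did not overlap. Over 32851 RefSeq windows (GRCm38.p6), AACAAT occurred in 10.7%, TTGGCA in 14.1% and TATAAA in 13.6%.

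Gja1 (chromosome 10, 56377330 to 56402513, plus strand) encodes Cx43, the main connexin of astrocytes, which is also made by leptomeningeal and other cells. It measured 29.9, 23.3 and 19.4 FPKM in Angptl2+/+ replicates 1 to 3, and 26.7, 24.5 and 24.0 FPKM in Angptl2-/- replicates 1 to 3. The null libraries lay close together inside the wild-type range. The means were 24.2 ± 5.29 and 25.1 ± 1.43 FPKM (SD, n = 3 each), and the log2 fold change was 0.07 with an SE of 0.16 and a 95% interval of −0.31 to 0.45 (limma, adjusted p = 0.841, exact permutation p = 0.7, two-sided). It was the only member with a positive value, and its sign turned without Angptl2+/+ replicate 3 (−0.07) and after a correction of each library for GC content (−0.16).

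Gjb6 (chromosome 14, 57123303 to 57133611, minus strand) encodes Cx30, a connexin of mature astrocytes. It measured 31.1, 22.3 and 29.7 FPKM in Angptl2+/+ replicates 1 to 3, and 21.7, 19.1 and 26.2 FPKM in Angptl2-/- replicates 1 to 3. Wild-type replicates 1 and 3 lay above all null libraries and wild-type replicate 2 lay between them. The means were 27.7 ± 4.73 and 22.3 ± 3.63 FPKM (SD, n = 3 each), with a log2 fold change of −0.31, an SE of 0.17 and a 95% interval of −0.71 to 0.09 (limma, adjusted p = 0.396, exact permutation p = 0.2, two-sided). Without each library in turn it ran from −0.46 to −0.20, the latter without Angptl2-/- replicate 2. The unadjusted p of limma was 0.114, and it was 0.0269 without Angptl2+/+ replicate 2 and 0.0474 without Angptl2-/- replicate 3, with adjusted p of 0.448 and 0.568.

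Per kilobase of exon, the astrocyte connexins were more abundant than the oligodendrocyte connexins in every library. Over the 6 libraries the means were 25.01 FPKM for Gjb6, 24.63 for Gja1, 10.2 for Gjc3 and 3.20 for Gjb1. Gja1 and Gjb6 could not be ordered, since Gja1 was higher in 3 of 6 libraries (exact sign-flip permutation test, p = 0.938). Gjb6 exceeded Gjc3 by 2.53-fold, Gja1 exceeded Gjc3 by 2.51-fold, and Gjc3 exceeded Gjb1 by 3.52-fold, each in 6 of 6 libraries (exact sign-flip permutation p = 0.0312, the smallest that 6 libraries allow, and 0.0375 adjusted over the 6 pairs). The place of Gja1 depends on the length its fragments are divided by. The exons annotated to Gja1 add up to 10257 bases, whereas its coding transcript in GENCODE has 3182, and if all fragments came from that transcript Gja1 would average 79.4 against 31.8 FPKM for Gjb6 on the same rule and would be higher in 6 of 6 libraries. Gjc3 and Gjb1 would average 11.1 and 3.44 FPKM, so their order would stand. For no pair did the ratio pass a test between the genotypes, with exact permutation p of 0.2 to 0.9 and adjusted values of 0.6 to 0.9 over the 6 pairs.

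Each member was assigned to oligodendrocytes or astrocytes, and its level was set against 12 markers of that cell type in the same library. For Gja1, which leptomeningeal and other cells also make, this assignment is only partial. The 12 oligodendrocyte markers all had negative fold changes, with a median of −0.59 on the log2 scale, from Mbp (−0.86), which encodes myelin basic protein, to Aspa (−0.15). Without Angptl2+/+ replicate 1 that median was −0.24, and without Angptl2-/- replicate 1 it was −0.28. None passed the adjusted threshold, 3 passed the unadjusted one, all lower in Angptl2-/-, and Mbp and Mag were lower in every Angptl2-/- library. Over all genes tested, 9.12% passed the unadjusted threshold as lower, and 11.8% had every Angptl2-/- library below every Angptl2+/+ library. The list varied among libraries as much as between genotypes: its mean log2 level, relative to the wild-type mean, was 0.70, −0.38 and −0.32 in Angptl2+/+ replicates 1 to 3 and −0.99, −0.55 and −0.04 in Angptl2-/- replicates 1 to 3. Of the 12 astrocyte markers 10 were negative, with a median of −0.30 that was −0.13 without Angptl2+/+ replicate 1. By limma 0 passed the adjusted threshold and 4 passed the unadjusted one, all lower in Angptl2-/-, beside the same 9.12% of all genes.

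**Figure D2:**
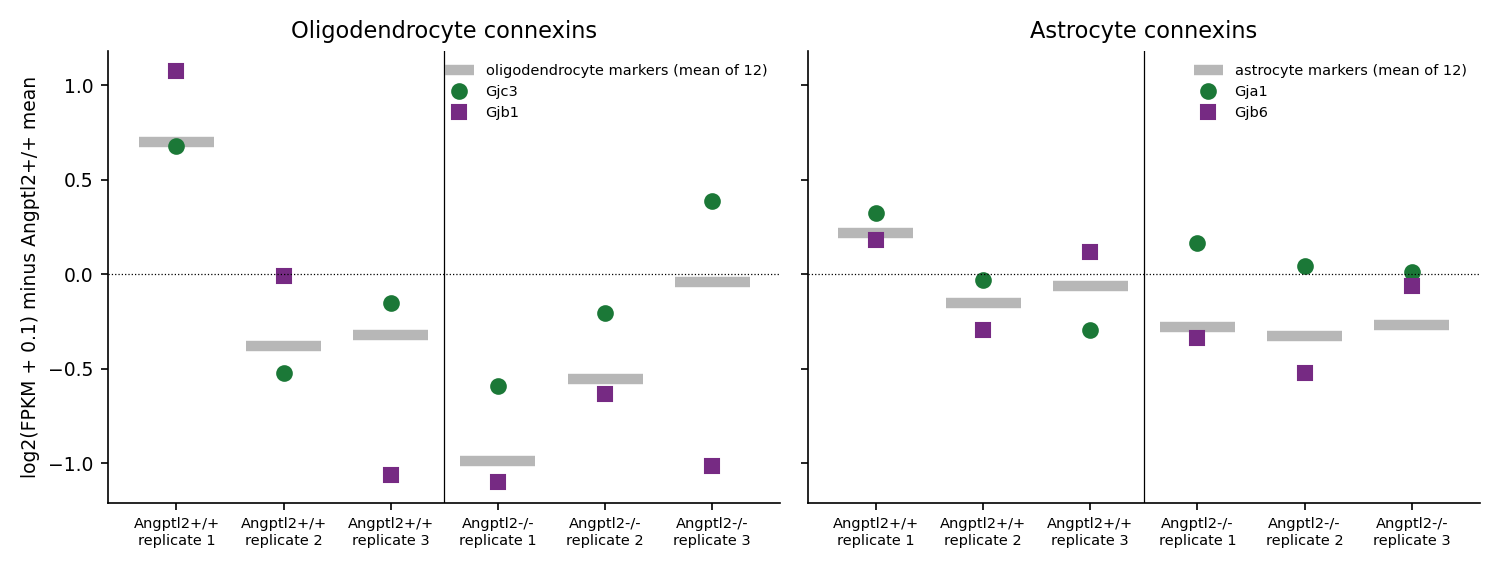
Log2(FPKM + 0.1) of the connexins in each library minus the Angptl2+/+ mean, for the oligodendrocyte connexins Gjc3 and Gjb1 (left) and the astrocyte connexins Gja1 and Gjb6 (right), with grey bars for the mean of the 12 markers of that cell type. Gjc3 lies above the marker bars in the 3 null libraries and Gjb1 below them, and the oligodendrocyte pair spreads more widely over the libraries than the astrocyte pair.

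Much of the variation of Gjc3 between libraries was shared with the oligodendrocyte markers. Its SD over the 6 libraries was 0.50 on the log2 scale and 0.24 for the ratio of Gjc3 to the markers. That log2 ratio was −2.19, −2.31 and −2.00 in Angptl2+/+ replicates 1 to 3 and −1.76, −1.82 and −1.73 in Angptl2-/- replicates 1 to 3, so every null library lay above every wild-type library, in contrast to the overlapping levels. The difference was 0.39 (−2.16 ± 0.157 against −1.77 ± 0.0418, SD, n = 3 each), with an exact permutation p of 0.1, two-sided, the smallest that 3 against 3 libraries allow, and 0.2 adjusted over the 4 members. It lay between 0.32 and 0.48 without each library in turn. The same arrangement relative to these markers was found for 13.1% of all genes tested, and the opposite one for 0.128%. Against the markers one by one the difference was positive for 12 of 12. This follows from the fold changes, as that of Gjc3 (−0.136) lay above those of all markers, with Aspa (−0.150) the nearest. The libraries did not overlap for Mbp, Mobp, Cldn11, Opalin and Mal, and the share of all genes with that arrangement was not computed for single markers.

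Gjb1 did not follow Gjc3 in this respect. Its log2 ratio to the same markers was −3.21, −3.22 and −4.33 in Angptl2+/+ replicates 1 to 3 and −3.70, −3.67 and −4.56 in Angptl2-/- replicates 1 to 3, and the difference was −0.39 with an exact permutation p of 0.5 (0.667 adjusted). It lay between −0.76 and −0.10 without each library in turn, the former without Angptl2+/+ replicate 3 and the latter without Angptl2-/- replicate 3. The SD of Gjb1 over the 6 libraries was 0.86 and that of its ratio 0.56, the widest of the 4 members on both scales.

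Of the astrocyte pair, Gja1 was higher relative to its markers in each null library and Gjb6 was not. The log2 ratio of Gja1 to the astrocyte markers was −0.24, −0.22 and −0.58 in Angptl2+/+ replicates 1 to 3 and 0.10, 0.02 and −0.06 in Angptl2-/- replicates 1 to 3. The difference was 0.36 (exact permutation p = 0.1, the smallest possible, and 0.2 adjusted), but 32.9% of all genes tested had the same arrangement relative to these markers and 1.16% the opposite one, and dividing by the markers did not narrow the spread of Gja1 (SD of 0.21 before and 0.24 after). With the median in place of the mean over the markers the difference of Gja1 was 0.24, and the groups overlapped (exact permutation p = 0.2, 0.4 adjusted). Against the markers one by one the difference of Gja1 was positive for 11 of 12, which likewise follows from the fold changes. The libraries did not overlap for Aldh1l1, Aldoc and Acsbg1, again without a share over all genes. The ratio of Gjb6 was −0.18, −0.29 and 0.04 in Angptl2+/+ replicates 1 to 3 and −0.20, −0.34 and 0.06 in Angptl2-/- replicates 1 to 3, a difference of −0.02 (exact permutation p = 0.9), with an SD that went from 0.28 to 0.17. Thus the level of Gjb6, but not that of Gja1, varied less when set against the other astrocyte transcripts, a difference that was not tested.

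**Figure D3:**
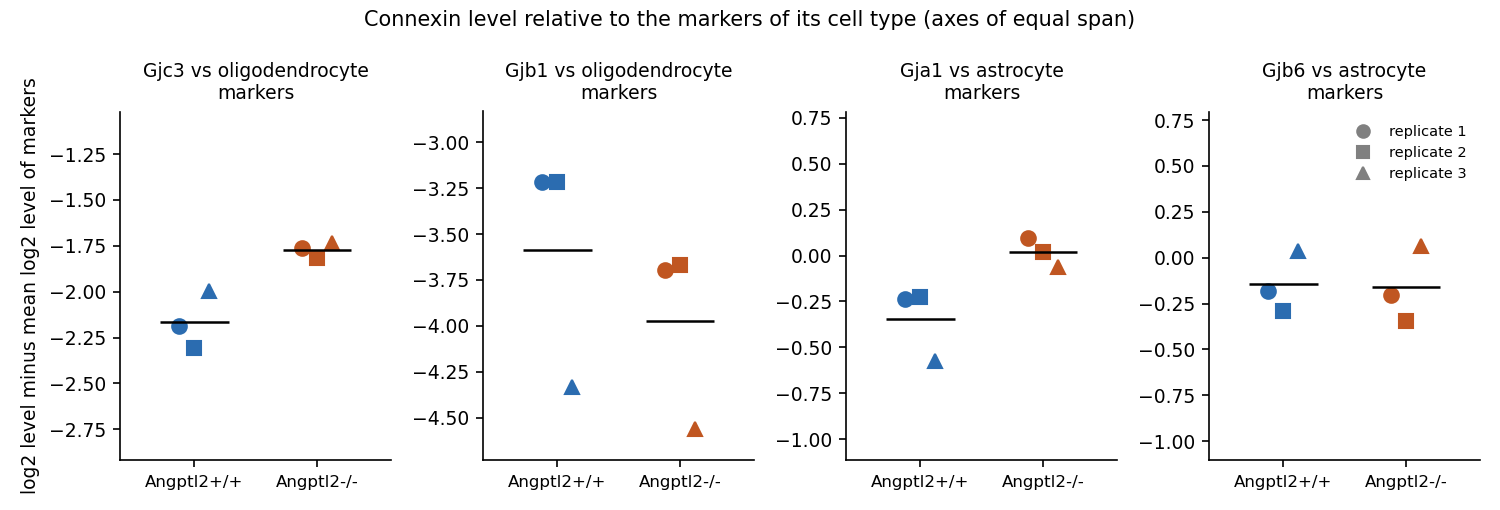
Log2 level of each connexin minus the mean log2 level of the 12 markers of its cell type, by library (circle, square and triangle for replicates 1, 2 and 3), with group means as lines and axes of equal span. For Gjc3 and Gja1 the 3 Angptl2-/- libraries lie above the 3 Angptl2+/+ libraries, by 0.39 and 0.36 on average, and for Gjb1 and Gjb6 the groups overlap.

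Of the 19 other connexin and pannexin genes, 8 reached the mean of 0.5 FPKM and could be tested. By limma 0 passed the adjusted threshold, 7 had negative fold changes, the median was −0.27, and 3 passed an unadjusted p of 0.05, all lower in Angptl2-/-. That median was −0.51 without Angptl2+/+ replicate 3 and −0.55 without Angptl2-/- replicate 1. Among these were Gjd3, at 2.21, 2.56 and 2.67 FPKM in Angptl2+/+ and 1.18, 0.920 and 1.53 in Angptl2-/- replicates 1 to 3 (log2 fold change −0.998, SE 0.21), and Panx2, a pannexin of neurons and glia, at 31.4, 27.0 and 28.6 against 23.3, 20.96 and 17.0 FPKM (−0.51, SE 0.14). For both, the groups did not overlap. Gjd3 rested on few fragments, with 33, 38 and 38 in Angptl2+/+ and 19, 13 and 21 in Angptl2-/- replicates 1 to 3. Over all genes tested, 9.12% were lower at an unadjusted p under 0.05 by limma. Every null library lay below every wild-type library for 11.8% of them, and above for 10.7%. Panx1, which forms large-pore channels in many cell types, was the single gene with a positive value (0.29, 95% interval −0.03 to 0.61), and each null library, at 6.43 to 8.09 FPKM, lay above the wild-type libraries, at 5.16 to 6.39 FPKM. Gjd2, the connexin of electrical synapses between neurons, had a log2 fold change of −0.28, Gjc1 of mural and neural cells −0.26, and the endothelial Gja4 −0.21, each with overlapping groups. The other 11 genes were not tested, and Gjb5, Gje1 and Panx3 were listed at 0 in each library.

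**Figure D4:**
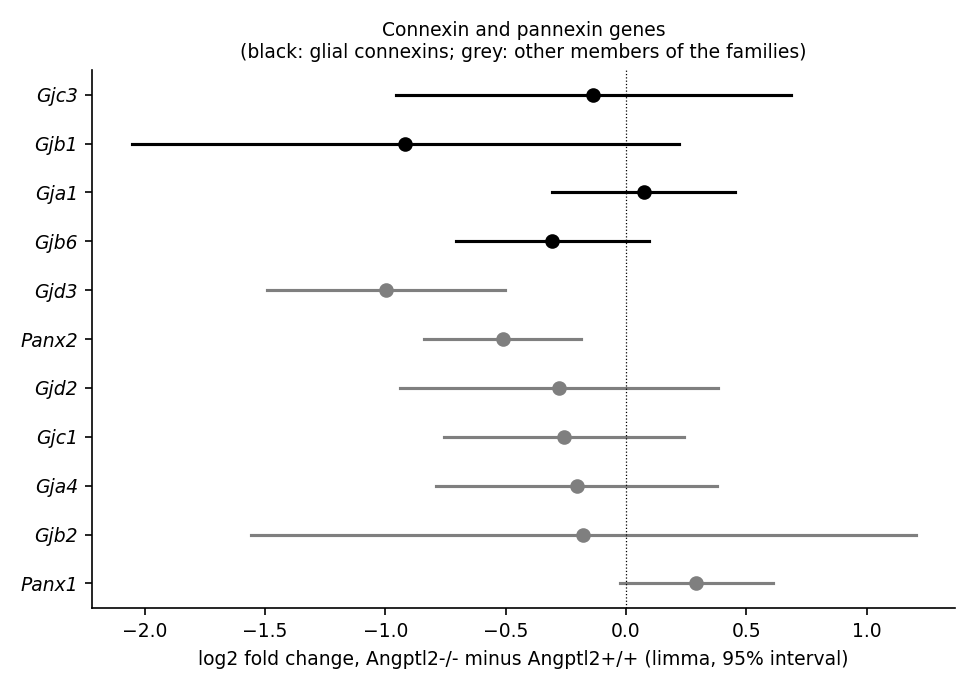
Log2 fold change (Angptl2-/- minus Angptl2+/+) with its 95% limma interval for the 4 glial connexins (black) and 7 other connexin and pannexin genes that were tested (grey). The intervals of the 4 glial connexins and of Gjd2, Gjc1, Gja4, Gjb2 and Panx1 include 0, and those of Gjd3 and Panx2 lie below it, although no gene passed adjustment over 14862 genes.

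Gjb2, encoding Cx26, is the neighbour of Gjb6 on chromosome 14 (57098600 to 57104702) and is made by leptomeningeal cells. It measured 9.55, 7.98 and 2.40 FPKM in Angptl2+/+ replicates 1 to 3 and 9.30, 4.80 and 2.82 FPKM in Angptl2-/- replicates 1 to 3, with a log2 fold change of −0.18 and a wide 95% interval of −1.56 to 1.203. The summed level of 8 leptomeningeal fibroblast markers was likewise lowest in replicate 3 of each genotype, at 6.33 and 10.4 FPKM, against 16.9 to 24.8 FPKM in the other 4 libraries. Gjb6 did not share this order, as its replicate 3 was the highest null library. Gja1, which leptomeningeal cells also make, was lowest in replicate 3 of each genotype, at 19.4 and 24.0 FPKM. Its null replicate 2 was close, at 24.5 FPKM, and a link to the leptomeningeal share was not tested.

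The genes for potassium, water and glutamate handling in the coupled glia had mostly negative fold changes, none past the adjusted threshold. Of 15 such genes all were tested, 12 had negative fold changes with a median of −0.24, 0 passed the adjusted threshold by limma and 4 passed the unadjusted one, all lower in Angptl2-/-. Over all genes tested, 9.12% passed the unadjusted threshold as lower. In this list every null library lay below every wild-type library for 6 genes and above for 1, beside 11.8% and 10.7% of all genes. The smallest p belonged to Kcnj10, the inward rectifier potassium channel Kir4.1, at 70.7, 49.0 and 52.5 FPKM in Angptl2+/+ and 42.7, 39.9 and 31.4 FPKM in Angptl2-/- replicates 1 to 3 (log2 fold change −0.59, SE 0.18, adjusted p = 0.273). Glul, glutamine synthetase, was the most abundant of the list, at 333 to 408 FPKM in Angptl2+/+ and 262 to 321 FPKM in Angptl2-/- (−0.36). Slc1a3, the glutamate transporter GLAST, was the gene above in each null library (0.15), and Aqp4 (−0.02) and Slc1a2 (0.06) had values near 0.

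The genes of proteins that bind, anchor or turn over connexins had fold changes of both signs. Of 15 genes listed, 1 (Nov) was not found under that symbol and 13 were tested, of which 9 had positive fold changes, with a median of 0.07 that was 0.17 without Angptl2+/+ replicate 1 and 0.04 without Angptl2+/+ replicate 3. By limma 0 passed the adjusted threshold, while 3 higher and 1 lower passed the unadjusted one. Over all genes tested, 7.09% passed it as higher and 9.12% as lower. In this list every null library lay above every wild-type library for 4 genes and below for 1, beside 10.7% and 11.8% of all genes. Nedd4, a ubiquitin ligase that acts on Cx43, measured 53.0, 55.0 and 52.1 FPKM in Angptl2+/+ and 64.9, 66.8 and 69.2 FPKM in Angptl2-/- replicates 1 to 3 (log2 fold change 0.33, SE 0.09, adjusted p = 0.273). Src, a kinase that phosphorylates Cx43, was lower in each null library (23.3 to 28.3 against 17.0 to 21.4 FPKM, −0.49). Tuba1a, an α-tubulin and the most abundant of the list, was higher in each (488 to 559 against 649 to 698 FPKM, 0.37). Tjp1, the ZO-1 scaffold that binds the tail of Cx43, stood at 0.11 with overlapping groups; it was named after its value was seen. Src, Nedd4 and Tuba1a are expressed in neurons as well as glia.

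The genes whose pattern over the 6 libraries lay closest to each member differed in kind. Likeness was measured as the root-mean-square distance of the centred log2 levels over 11721 protein-coding genes. Closest to Gjc3 were Aspa (0.0756), Tspan2 (0.0886) and Ugt8a (0.0959), all known from oligodendrocytes, where the median gene lay at 0.501. Closest to Gjb1 were Mbp (0.313), Mag (0.315) and Nipal4 (0.320), with a median of 0.803, and Gjc3 ranked 1688. Closest to Gja1 were Etfa (0.0381), Klhl1 (0.0395) and Minar1 (0.0532), and closest to Gjb6 were Klhl21 (0.0680), Tmem268 (0.0788) and Tsc22d3 (0.0791), none of them among the 12 astrocyte markers. The levels of Gja1 and Gjb6 moved little between libraries, so many genes lie near them by this measure, with medians of 0.278 and 0.320. These distances rest on 6 libraries that share tissue make-up and describe the pattern only.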

How the data were processed

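RNA of P15 mouse brain was sequenced by the authors as paired-end reads of 150 bases in 6 libraries, 3 Angptl2+/+ and 3 Angptl2-/-. The authors deposited 1 FPKM value per gene and library. The submitters' processing notes name Bowtie 0.12.2 and mm8, while 54495 of 54532 gene identifiers and the exon lengths match GENCODE M21 (GRCm38), from which symbols, coordinates and coding sequences were taken (37 identifiers were unmatched). How fragments were counted, with which annotation, strand setting or filter, is not given in the sources used here. FPKM times exon length gave whole fragments, within 0.05, for 96.6 to 96.8% of values above 0; these set the depth and cover counting error only.

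Differences (Angptl2-/- minus Angptl2+/+) were tested on log2(FPKM + 0.1) by the trended, moderated test of limma 3.58.1 (R 4.3.3), two-sided, over the 14862 genes with a mean of at least 0.5 FPKM, and adjusted by the Benjamini-Hochberg method at 0.05. Fold changes on this scale understate the change of low genes. Exact permutation tests used the 20 splits of 6 libraries into 3 and 3, so the smallest two-sided p is 0.1. The 4 genes, the marker lists, the other gene lists and the motifs were chosen with earlier results of these data known. The genes named are the 4 members, every other connexin or pannexin tested, from the coupling and partner lists the most abundant gene and the 3 of smallest p, the 3 genes nearest to each member, and Angptl2, Xist and Ddx3y; others were named after their values were seen, and some genes of the rule are counted in their lists but not reported here by name. Promoter windows are those of RefSeq. The code was checked on simulated data. Alternatives tried were other pseudocounts (0.01 and 1), other filters (none, or a mean of at least 1 FPKM), quantile and median-ratio scaling, moderation without trend or robust, a replicate block, Xist as a covariate, GC correction (loess span 0.3, 14845 genes), voom on the recovered fragments, and leaving out each library. Python 3.11.15, numpy 2.4.6, pandas 2.3.3, scipy 1.17.1 and matplotlib 3.10.9 were used.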

Additional observations from a re-analysis of the deposited data

How the results depend on the processing

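The differences of Gjb1 and Gjb6 kept their sign under all 18 alternatives, from −1.45 to −0.38 and from −0.46 to −0.20 on the log2 scale, both ranges set by leaving out 1 library, and no member passed the adjusted threshold under any of them (limma, adjusted p from 0.207 to 0.945 over the 4 members). Without each library in turn Gjc3 ran from −0.40 to 0.20 and Gja1 from −0.0741 to 0.24. Gjc3 changed sign without Angptl2+/+ replicate 1 (0.20) and without Angptl2-/- replicate 1 (0.09). Gja1 changed sign without Angptl2+/+ replicate 3 (−0.0741) and under the GC correction (−0.16). Relative to its markers, Gjb6 changed sign without Angptl2+/+ replicate 3 (0.0744), Angptl2-/- replicate 1 (0.00485) and Angptl2-/- replicate 2 (0.0743), and ran from −0.128 to 0.0744 without each library. For these sign changes the cause was not tested beyond the samples left out.

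Over the whole table, 1 gene was called with the replicate block (Ttr), 1 with Xist as a covariate (Ttr) and 1 without Angptl2+/+ replicate 1 (Gapdh), and 0 to 1 without each library in turn. Correlations of same-numbered deviations were 0.04, −0.07 and 0.16, and those of differently numbered ones ran from −0.26 to 0.26. These values cannot decide whether the replicate numbers pair the libraries, because deviations from a mean of 3 libraries are not independent. With the replicate block, limma gave Gjb6 −0.31 (unadjusted p = 0.0404, adjusted p = 0.266) and Gjb1 −0.92 (unadjusted p = 0.0701, adjusted p = 0.308), so Gjb6 passed the unadjusted threshold there and no member passed the adjusted one. Genes at an unadjusted p under 0.05 numbered 638 to 1656 lower and 407 to 1373 higher, the smallest under the GC correction (638 and 407). They were 599 higher without Angptl2+/+ replicate 1, 881 lower and 676 higher without Angptl2+/+ replicate 2, 790 and 481 without Angptl2-/- replicate 2, 835 and 465 without Angptl2-/- replicate 3, and 657 higher with Xist as a covariate. With 50 to 242 fragments a library, Gjb1 was the member with the fewest, and how much depth added to its spread was not tested.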

Other observations

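Among the cell type lists outside the 2 glial types of the connexins, the medians of the log2 fold change were −0.03 for oligodendrocyte precursors (−0.14 to 0.05 without each library in turn), −0.14 for endothelial cells (−0.20 to −0.01, the latter without Angptl2-/- replicate 3), −0.004 for microglia (−0.05 to 0.07) and 0.07 for neurons (0.03 without Angptl2+/+ replicate 1 to 0.29 without Angptl2+/+ replicate 3). The leptomeningeal median was −0.06, and it was −0.69 without Angptl2+/+ replicate 3 and 0.24 without Angptl2+/+ replicate 1. The ependymal median was −0.59 (3 of 5 genes tested), and it was −0.07 without Angptl2+/+ replicate 2.

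The choroid plexus median was 2.61 (1.94 to 3.18 without each library in turn), and 0.99 with a pseudocount of 1. The striatal median was 1.5 (1.11 to 1.996) and that of red blood cell genes −1.08 (−1.26 to −0.69, the latter without Angptl2-/- replicate 3). The cerebellar median was −1.01, and it was 0.30 without Angptl2+/+ replicate 1, −1.68 without Angptl2+/+ replicate 2 and −1.69 without Angptl2+/+ replicate 3. In Angptl2+/+ replicate 1 Pcp2, a Purkinje cell gene, stood at 6.16 FPKM against at most 0.1002 FPKM in the other 5 libraries. No gene of these lists passed the adjusted threshold by limma in the fit of all 6 libraries without a block or covariate. Ttr, of the choroid plexus list, passed it with the replicate block and with Xist as a covariate.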
